A study of Ovis aries with 30 samples.

Results

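The liver disposes of ammonia through the urea cycle and through glutamine, and 10 genes of these routes were followed in the livers of lambs. They are CPS1, OTC, ASS1, ASL and ARG1, which encode the 5 enzymes of the cycle, NAGS and SLC25A15, which serve it in the mitochondrion, and GLUL, GLS2 and GLUD1, which handle glutamine and glutamate. They were taken by symbol, by a rule that uses no measured value, though earlier results of these data were known when they were chosen. All 10 were found among the 31304 genes of the count table, and all 10 passed the low-count filter that kept 17840 genes. Liver RNA was sequenced from 30 F1 lambs of Ovis aries whose mothers had, or had not, been exposed to biosolids before conception and during gestation. Biosolids are treated sewage sludge used as a fertiliser. The groups were 7 males born to biosolids-exposed ewes (biosolids males), 7 males of unexposed ewes (control males), 8 biosolids females and 8 control females. Breed, age and litter of the lambs were not given in the labels, the tissue was whole frozen liver, and each lamb has its own tag number.

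In mammals the cycle starts in the mitochondria of periportal hepatocytes, the cells around the incoming vessels of the lobule. Carbamoyl phosphate is made there from ammonia and bicarbonate, joined to ornithine, and carried on in the cytosol through argininosuccinate to arginine, from which urea is split. Ammonia that passes these cells is caught as glutamine by the last hepatocytes before the central vein. In ruminants the rumen releases much ammonia into the portal blood, so both routes carry a heavy load in the sheep liver.

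Total counts per library, in mega-counts (M), lay between 18.7 and 43.3 M in biosolids males, 32.7 and 51.9 M in control males, 24.1 and 42.8 M in biosolids females, and 29.8 and 39.1 M in control females. Biosolids male 8778 had 87.5% of its counts on ribosomal RNA rows, which left 2.34 M for other genes and as few as 172 for SLC25A15, while the other libraries had at most 7.69% on those rows. Control female 8263 held the most macrophage marker RNA, 2150 CPM over 8 genes, where the highest lamb of every other group held at most 1398 CPM. Control male 8408 went against its label in one measure: it held 302 CPM (counts per M on TMM-scaled libraries) of the X-linked RNA LOC101112291, where the 13 other males held at most 2.05 CPM and the females at least 318 CPM. Its Y-linked gene LOC132657142, at 87.9 CPM, was within the range of the other males, 40.5 to 101 CPM. Biosolids female 8649 held 746 CPM of cholangiocyte marker RNA over 9 genes, where the highest lamb of every other group held at most 140 CPM. In keeping with the liver label, 11 hepatocyte marker genes summed to 67350 CPM or more in every lamb, while 4 of 5 kidney tubule markers and 5 of 5 erythroid markers were below 1 CPM in every lamb.

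Together the 10 genes took 0.439 to 1.12% of the counts outside ribosomal RNA, with a median of 0.769%. The 5 cycle enzymes alone made up 0.303 to 0.951%, with a median of 0.566%. Exposure and sex groups shared most of this range. The cycle enzymes had medians of 0.534% in biosolids males and 0.549% in control males, and of 0.600% in biosolids females and 0.515% in control females.

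Levels of different genes were compared as CPM per kilobase of the exon length in the deposited table. ASS1 stood first, with a median of 894 CPM per kilobase over the 30 lambs, and 52 of the 17840 genes had a higher median. CPS1 came second at 439 CPM per kilobase and lay below ASS1 in 30 of 30 lambs. ASL, at 313, and GLUD1, at 309 CPM per kilobase, were not separated, since ASL was above GLUD1 in 13 of 30 lambs. GLUL followed at 96.1, NAGS at 79.1 and GLS2 at 62.1 CPM per kilobase, and each of these neighbours changed places in some lambs, with GLUL above NAGS in 21 and NAGS above GLS2 in 25 of 30 lambs. ARG1 was lower again at 40.0 CPM per kilobase, below GLS2 in 21 lambs but above SLC25A15, at 13.6, in 30 of 30. OTC closed the order at 9.13 CPM per kilobase, below SLC25A15 in 26 of 30 lambs. The exon length deposited for OTC was 13912 bases, against 1640 bases for ASS1, so its place depends on how much of that length is transcribed in the liver.

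**Figure D1:**
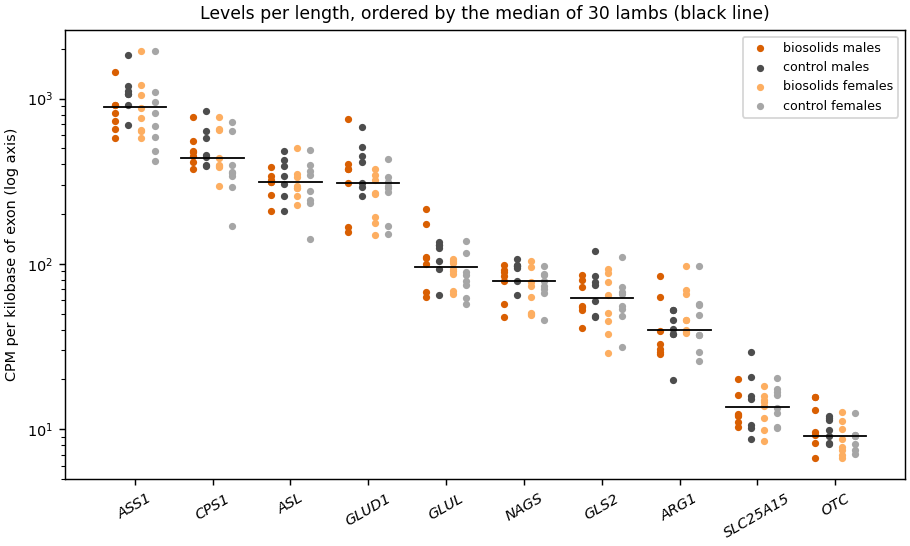
The vertical axis gives CPM per kilobase of exon on a log axis, each point is a lamb coloured by group, and the black line is the median of all 30 lambs. The order runs from ASS1 at a median of 894 to OTC at 9.13, and the 4 groups of each gene lie over each other.

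CPS1 makes carbamoyl phosphate, the entry step of the cycle, and lies on chromosome 2 (212172844 to 212364377, plus strand, assembly ARS-UI_Ramb_v3.0, as are all positions here). In biosolids males it was measured at 2351, 2970 and 4843 CPM (lowest, median and highest lamb), and in control males at 2442, 2844 and 5255 CPM. In biosolids females the values were 1859, 2607 and 4832 CPM, and in control females 1060, 2230 and 4549 CPM. The ranges overlapped in both sexes, although 7 of 8 biosolids females were above the median of the control females. The log2 fold change, biosolids over control, was -0.09 ± 0.26 in males and 0.28 ± 0.24 in females (standard error), and the lowest lamb of all, control female 8263, was the one with the most macrophage marker RNA; the part of that in its CPS1 value was not tested.

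NAGS makes N-acetylglutamate, the activator that CPS1 needs, and is on chromosome 11 (43604205 to 43609893, plus strand). Biosolids males had 101, 177 and 207 CPM and control males 136, 203 and 224 CPM. Biosolids females had 103, 144 and 219 CPM and control females 96.1, 160 and 205 CPM. In the males 1 of 7 exposed lambs lay above the control median. The ranges overlapped, but biosolids males 8735, at 101 CPM, and 8778, at 120 CPM, were below the lowest control male. The log2 fold changes were -0.22 ± 0.19 in males and -0.10 ± 0.17 in females.

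OTC joins carbamoyl phosphate to ornithine and is X-linked (37890536 to 37971494, plus strand). It was measured at 92.4, 134 and 219 CPM in biosolids males and at 114, 138 and 167 CPM in control males. In biosolids females it was at 92.6, 115 and 175 CPM, and in control females at 98.6, 126 and 175 CPM. The biosolids males held both the lowest lamb and the highest lamb of all, with an SD of 50.2 CPM against 22.6 CPM in control males. The log2 fold change was 0.15 ± 0.18 in males and -0.01 ± 0.17 in females. The male value was 0.05 without biosolids male 8778 and 0.24 without biosolids male 8735. SLC25A15, the carrier that brings ornithine into the mitochondrion, is on chromosome 10 (22037258 to 22068782, minus strand). It was at 61.1, 71.6 and 119 CPM in biosolids males, 51.6, 89.6 and 172 CPM in control males, 50.1, 83.4 and 108 CPM in biosolids females, and 59.6, 86.6 and 120 CPM in control females. Its groups overlapped, and the log2 fold changes were -0.23 ± 0.22 in males and -0.12 ± 0.21 in females. In males this came to -0.01 without control male 8382, the lamb at 172 CPM, and to -0.36 without biosolids male 8764.

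ASS1 joins citrulline and aspartate (chromosome 3, 6091602 to 6143739, minus strand). It reached 949, 1334 and 2389 CPM in biosolids males and 1143, 1755 and 2997 CPM in control males. In biosolids females it reached 941, 1344 and 3188 CPM, and in control females 690, 1229 and 3203 CPM. In each of the 4 groups 1 lamb stood well above the others, and 1 of 7 biosolids males was above the median of the control males. The log2 fold change was -0.38 ± 0.30 in males, with a 95% interval of -0.99 to 0.23, and 0.14 ± 0.28 in females. In males it was -0.22 without control male 8382 and -0.55 without biosolids male 8690. In females it was -0.08 without biosolids female 8775 and 0.42 without control female 8245.

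ASL cleaves argininosuccinate to arginine and fumarate (chromosome 24, 28476259 to 28485288, minus strand). Its values were 366, 548 and 668 CPM in biosolids males and 366, 591 and 835 CPM in control males. They were 396, 509 and 881 CPM in biosolids females and 246, 541 and 855 CPM in control females. All groups overlapped, with log2 fold changes of -0.17 ± 0.22 in males and 0.03 ± 0.20 in females. ARG1, the arginase that releases urea, is on chromosome 8 (56992934 to 57008252, plus strand). It was at 85.8, 98.4 and 254 CPM in biosolids males, 59.7, 122 and 159 CPM in control males, 115, 137 and 293 CPM in biosolids females, and 78.2, 130 and 293 CPM in control females. The highest biosolids male was 8778, the library with few counts outside ribosomal RNA, and the lowest control male was 8408. The log2 fold change in males was 0.10 ± 0.29, turned to -0.13 without biosolids male 8778 and was -0.02 without control male 8408. In females it was 0.18 ± 0.27.

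GLUL, glutamine synthetase, fixes ammonia as glutamine in the pericentral hepatocytes and is on chromosome 12 (62912981 to 62923557, minus strand). It was measured at 208, 358 and 714 CPM in biosolids males and at 215, 412 and 449 CPM in control males. In biosolids females it was at 218, 304 and 351 CPM, and in control females at 190, 271 and 455 CPM. The biosolids males spread most, with an SD of 185 CPM against 85.0 CPM in control males, and lamb 8770 was the highest. The log2 fold changes were 0.10 ± 0.23 in males and 0.03 ± 0.22 in females, and that of males was -0.10 without lamb 8770.

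GLS2, the liver glutaminase, releases ammonia from glutamine, in rodents in periportal cells (chromosome 3, 163135577 to 163148283, plus strand). Biosolids males had 108, 147 and 226 CPM and control males 125, 195 and 315 CPM. Biosolids females had 75.6, 152 and 246 CPM and control females 82.4, 160 and 290 CPM. These ranges overlapped, with log2 fold changes of -0.21 ± 0.26 in males and -0.06 ± 0.24 in females. GLUD1, glutamate dehydrogenase, interconverts glutamate with ammonia and oxoglutarate (chromosome 25, 40640653 to 40679694, minus strand). It was at 472, 1129 and 2263 CPM in biosolids males, 781, 1252 and 2037 CPM in control males, 450, 800 and 1130 CPM in biosolids females, and 456, 884 and 1299 CPM in control females. The males of both groups reached higher than the females, and all ranges overlapped. The log2 fold changes for exposure were -0.20 ± 0.29 in males and -0.11 ± 0.27 in females. The male value was -0.04 without control male 8408 and -0.47 without biosolids male 8770. OTC, ARG1, GLS2 and GLUD1 each share 32 to 1072 bases of their whole span, introns included, with a gene on the opposite strand. How many of these bases are exon in both genes was not computed. The use of strand in counting is not given.

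**Figure D2:**
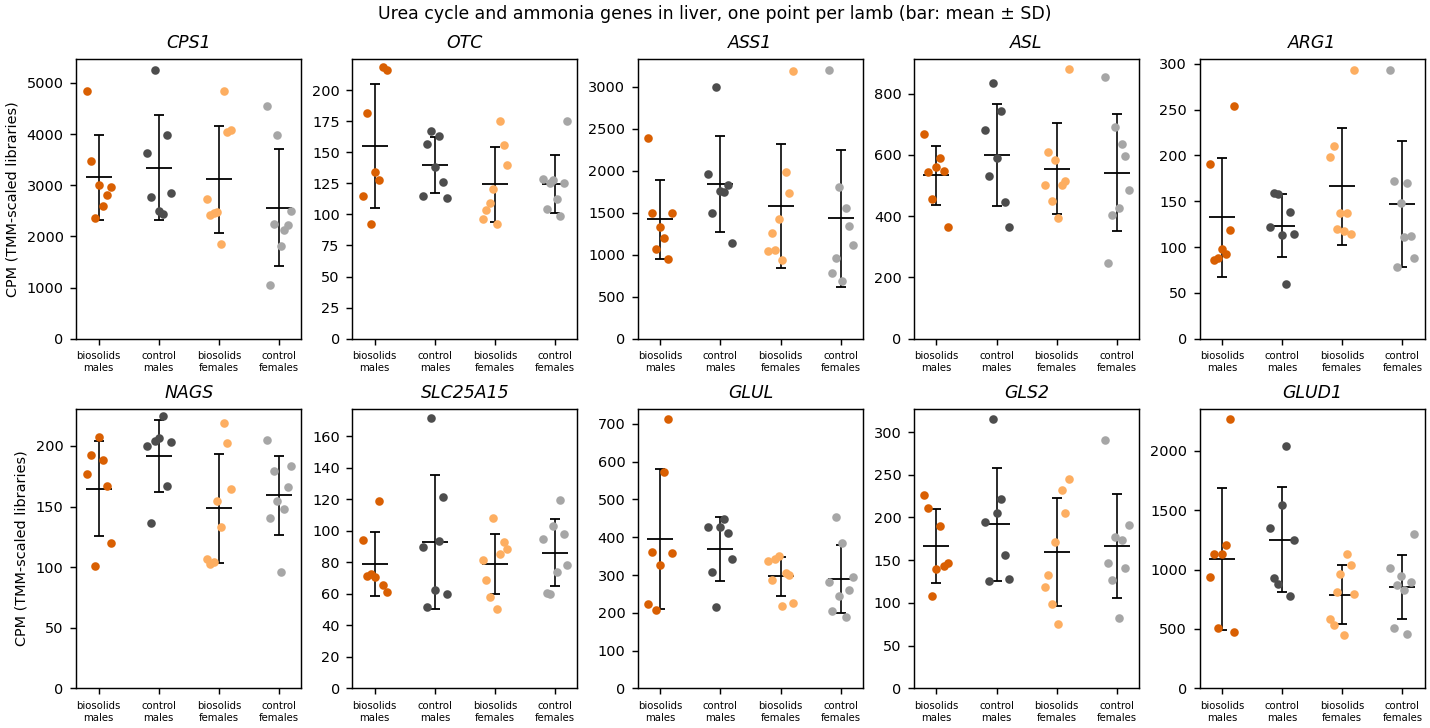
Each panel shows a gene, the vertical axis is CPM on TMM-scaled libraries starting at 0, each point is a lamb, and bars give the mean ± SD of 7 biosolids males, 7 control males, 8 biosolids females and 8 control females. In every panel the groups overlap, and for ASS1 a lamb stands above the rest of each group, at 2389, 2997, 3188 and 3203 CPM.

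The study asked whether exposure of the mother altered the liver transcriptome of her lambs. For the urea cycle and ammonia genes, no difference between biosolids and control lambs passed the test in males, in females or over both sexes. With edgeR (quasi-likelihood test, Benjamini-Hochberg adjustment over 17840 genes), 0 of 10 reached an adjusted p under 0.05 in each of these comparisons, where the share of all genes called was 0% in each. At an unadjusted p under 0.05 there were also 0 of 10 in each, against 970 genes (5.44%) in males, 652 genes (3.65%) in females and 768 genes (4.30%) over both sexes. DESeq2 and limma voom likewise called 0 of the 10. No gene of the 10 had groups with separate ranges, in a table where 0.0561% of genes had them in males and 0% in females.

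Over both sexes the 95% intervals of the 10 log2 fold changes ran from -0.56 at the lowest (GLUD1) to 0.54 at the highest (ARG1), which as fold changes are 0.677 and 1.45. In males alone the lowest bound was that of ASS1, a fold change of 0.503, and in females alone the highest was that of CPS1, 1.72.

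By direction, 7 of 10 log2 fold changes were below 0 in males, with a median of -0.18 beside 0.0088 for all genes, of which 48.7% were below 0. In females 5 of 10 were below 0, with a median of 0.01 beside -0.02 for all genes, of which 54.1% were below 0. Over both sexes 6 of 10 were below 0, with a median of -0.09 beside -0.0041 for all genes and 51.1% of genes below 0. The male median was -0.03 without control male 8382, where 6 of 10 were below 0, and -0.03 with 2 surrogate variables. It was -0.23 without control male 8364. The male offset also depended on scaling. Mean ASL was 534 CPM in biosolids males and 599 in control males, but 591 and 600 CPM without ribosomal RNA rows and TMM factors. Mean CPS1 went from 3152 and 3345 CPM to 3494 and 3347 CPM in the same groups. Mean ASS1 went from 1422 and 1849 CPM to 1584 and 1851 CPM. Over both sexes ARG1 was at 0.14 ± 0.20, at 0.025 without biosolids male 8778 and at 0.25 without control female 8245. The difference between the sexes in the effect of exposure (males minus females) was largest for ASS1, at -0.52 ± 0.41, and for CPS1, at -0.37 ± 0.36. With 1 lamb left out at a time, ASS1 ranged from -0.80 without control female 8245 to -0.29 without biosolids female 8775, and CPS1 from -0.54 without 8245 to -0.22 without control male 8382. Neither was called (edgeR quasi-likelihood test, adjusted p 0.952 for both). For this interaction 0 of 10 genes were called, as were 0% of all genes, and 0 of 10 had an unadjusted p under 0.05, beside 3.63% of all genes. The interaction was below 0 for 8 of 10, with a median of -0.11 beside 0.03 for all genes, of which 46.6% were below 0.

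**Figure D3:**
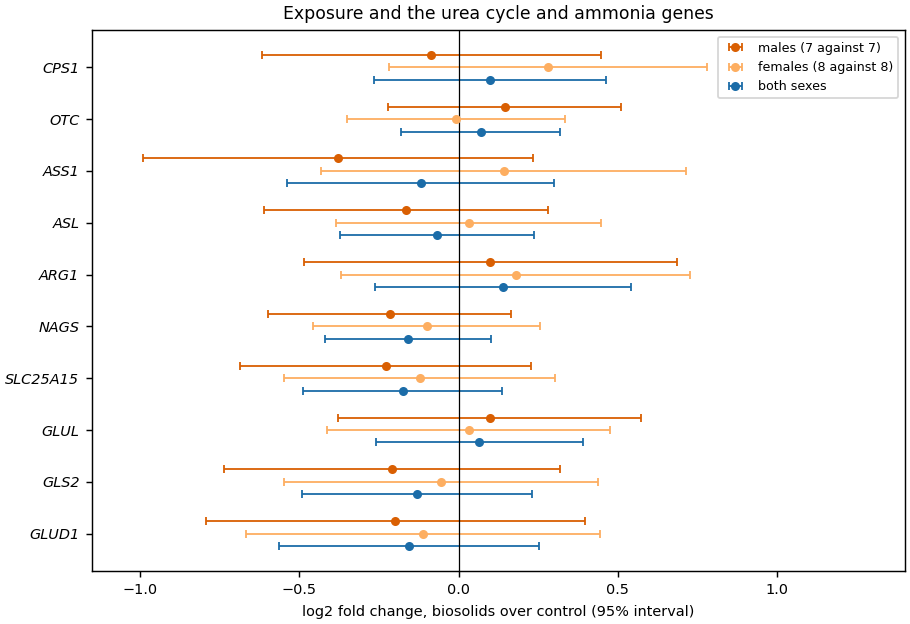
The horizontal axis is the log2 fold change of biosolids over control lambs, with 95% intervals, for each gene in 7 against 7 males, 8 against 8 females and both sexes. All 30 intervals include 0, and the widest is that of ASS1 in males, from -0.99 to 0.23.

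The hepatocyte markers lay on the same side of 0 as most male values. In exposed males all 11 hepatocyte markers had log2 fold changes below 0, with a median of -0.25, and 0 were called. The summed hepatocyte markers were at 72910, 103400 and 127800 CPM in biosolids males (lowest, median and highest) and at 102100, 112000 and 133000 CPM in control males. In whole liver, fewer cells of a type and less RNA per cell cannot be told apart. Without biosolids male 8778, 10 of 11 markers were below 0, with a median of -0.22, and 8 of the 10 urea cycle and ammonia genes were below 0, with a median of -0.11. T and NK cell markers were also below 0 in exposed males, in 8 of 8, with a median of -0.24. Cholangiocyte markers were above 0 in 7 of 9, with a median of 0.31 and 3 at an unadjusted p under 0.05. The part of these markers in the values of the 10 genes was not tested. In females 6 of 11 hepatocyte markers were below 0, with a median of -0.02. Cholangiocyte markers were above 0 in 7 of 9 in females, with a median of 0.89 and 4 at an unadjusted p under 0.05. Their sums were 26.7, 34.4 and 746 CPM in biosolids females (lowest, median and highest), the highest in lamb 8649, and 19.0, 36.2 and 67.9 CPM in control females. Stellate cell and fibroblast markers were above 0 in 9 of 10, with a median of 0.26. T and NK cell markers were below 0 in 7 of 8, with a median of -0.44. Without biosolids female 8649, 6 of the 10 urea cycle and ammonia genes were above 0 in females, with a median of 0.02. The part of these lists in the female values was not tested.

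Between the sexes no gene of the 10 was called either. In control lambs, males over females, 9 of 10 log2 fold changes were above 0, with a median of 0.24 beside -0.04 for all genes, of which 45.4% were above 0. GLUD1 had the largest, 0.56 ± 0.28, from 1253 ± 443 CPM in control males and 851 ± 270 CPM in control females (SD, n = 7 and 8). The edgeR quasi-likelihood test gave it an adjusted p of 0.275. Its log2 fold change was 0.40 without control male 8408 and 0.67 without control female 8378. CPS1 followed at 0.39 ± 0.25, ASS1 at 0.37 ± 0.29 and GLUL at 0.35 ± 0.23, while ARG1 was at -0.25 ± 0.28. With 1 lamb left out at a time, CPS1 ranged from 0.24 without control male 8382 to 0.56 without control female 8245, and ASS1 from 0.21 to 0.65 without the same lambs. ARG1 came to -0.03 without control female 8245 and to -0.34 without control female 8269. With 2 surrogate variables 5 of 10 genes were above 0, with a median of -0.0052. In this comparison 0 of 10 were called, where 0.0841% of all genes were, and 0 of 10 had an unadjusted p under 0.05, where 18.9% of all genes had one. None of the 10 had separate ranges, beside 0.213% of all genes.

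Hepatocyte markers had positive values in this comparison too: 9 of 11 were above 0 in control males over control females, with a median of 0.41, and 7 had an unadjusted p under 0.05. Stellate cell and fibroblast markers were above 0 in 9 of 10, with a median of 0.36 and 5 at an unadjusted p under 0.05. Macrophage markers were below 0 in 6 of 7, with a median of -0.27, and T and NK cell markers in 7 of 8, with a median of -0.34. Without control female 8263 these were 5 of 7 with a median of -0.13 and 6 of 8 with a median of -0.08, while stellate cell and fibroblast markers were above 0 in 9 of 10. The part of these lists in the sex values was not tested. In biosolids lambs, males over females, 7 of 10 genes were above 0, with a median of 0.04 beside 0.0001 for all genes, of which 50.0% were above 0. GLUD1 was at 0.47 ± 0.28, GLUL at 0.42 ± 0.23, OTC at 0.32 ± 0.17 and ARG1 at -0.33 ± 0.28. Without biosolids male 8778 OTC was at 0.21 and ARG1 at -0.58. OTC was at 0.41 without biosolids male 8735, and ARG1 at -0.16 without biosolids female 8775. Of the 10, 0 were called by edgeR's quasi-likelihood test and 0 had an unadjusted p under 0.05, where 0.0953% and 4.85% of all genes did, and none had separate ranges, beside 0.0673% of all genes. For GLUL the value was 0.20 without biosolids male 8770 and 0.53 without biosolids male 8735. For GLUD1 it was 0.18 and 0.595 without the same lambs.

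Genes around the cycle were read from 7 lists, and in exposure 0 members of any list were called by edgeR's quasi-likelihood test. Of 15 tested carriers and transporters of substrates, 12 were below 0 in males, with a median of -0.29, and 8 of 15 in females, with a median of -0.03. AQP8, a water channel that also passes ammonia, had the smallest p of this list in females. It was at 102, 208 and 302 CPM in biosolids females and 173, 370 and 655 CPM in control females, which is -0.90 ± 0.30 on the log2 scale. The ranges overlapped, and the edgeR quasi-likelihood test gave an unadjusted p of 0.00476 and an adjusted p of 1. In males SLC38A4, an amino acid transporter, had the smallest p of the list, at -0.29 ± 0.17.

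Bicarbonate, aspartate, fumarate and acetyl-CoA supply had 8 of 13 genes below 0 in males and 4 of 13 in females. CA2, a cytosolic carbonic anhydrase, was at 12.1, 22.9 and 34.4 CPM in biosolids males and 20.1, 35.3 and 55.6 CPM in control males, which is -0.66 ± 0.22 on the log2 scale (edgeR quasi-likelihood test, adjusted p 0.816). ME1, the cytosolic malic enzyme, was at 1.12 ± 0.39 in females. Of 39 genes that release ammonia from amino acids, 29 were below 0 in males and 14 in females, with medians of -0.11 and 0.03. MAOA, a monoamine oxidase, had the smallest p in females at 0.49 ± 0.17, and DLD, a subunit of the glycine cleavage system, in males at 0.31 ± 0.13. Of 20 genes listed for the use of cycle intermediates in polyamines, creatine, nitric oxide or pyrimidines, 13 were below 0 in males and 8 in females. PPAT, on this list though it is the entry enzyme of purine synthesis, was at -0.67 ± 0.24 in males.

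Among 20 regulators of urea cycle genes, 12 were below 0 in males and 10 in females. CEBPB, a transcription factor of the acute phase response, had opposite signs in the sexes. It averaged 239 ± 63.5 CPM in biosolids males and 320 ± 73.8 CPM in control males (SD, n = 7 each), and 300 ± 94.2 CPM in biosolids females and 230 ± 62.2 CPM in control ones (SD, n = 8 each). The log2 fold changes were -0.42 ± 0.20 and 0.39 ± 0.19, and their difference of -0.81 ± 0.28 did not pass (edgeR quasi-likelihood test, adjusted p 0.952). The zone lists gave 15 of 16 periportal markers below 0 in males and 5 of 16 in females, with medians of -0.19 and 0.11. Of 17 pericentral markers 15 were below 0 in males and 9 in females, with medians of -0.31 and -0.13. The smallest p of the periportal list in males was that of SDS, serine dehydratase, at -1.36 ± 0.76, and of the pericentral list that of LHPP, a phosphatase, at -0.32 ± 0.19. In control males over control females, 0 of the listed pathway genes were called, and the smallest p was that of DHODH, the dihydroorotate dehydrogenase of pyrimidine synthesis, at 0.45 ± 0.12 (edgeR quasi-likelihood test, adjusted p 0.198).

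ARG2, the arginase of many tissues outside the liver, was low in these livers. It averaged 2.11 ± 1.44 CPM in biosolids males, 3.08 ± 3.37 in control males, 2.77 ± 1.55 in biosolids females and 4.35 ± 4.05 CPM in control females (SD, n = 7 males and 8 females a group).

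Single lambs differed widely. The highest lamb over the lowest of all 30 was 5.02-fold for GLUD1, 4.96-fold for CPS1, 4.91-fold for ARG1 and 4.64-fold for ASS1, and it was smallest for NAGS at 2.33-fold. The SD of log2 CPM within groups ran from 0.33 for OTC to 0.57 for GLUD1, with a median of 0.47 over the 10 genes. The median was 0.42 over all genes tested and 0.39 over the 1306 genes with at least 100 CPM. Control female 8245 was above its group mean in 10 of 10 genes. Biosolids female 8714 and biosolids male 8735 were below theirs in all 10.

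The 10 genes did not vary as one set. Deviations of log2 CPM from the group mean were correlated over the 30 lambs for all 45 pairs, each tested by a two-sided permutation test with 100000 resamples and Benjamini-Hochberg adjustment over the 45 pairs. Positive values were common elsewhere too. Pairs of the 1306 genes with at least 100 CPM had a median r of 0.21, and 64.2% of them were positive. The points share library composition, and its part in these values was not tested. Among the 45 pairs 37 had a positive Pearson's r, and the median r was 0.35. For r, 19 pairs had an adjusted permutation p under 0.05, all of them positive. For Spearman's rho there were 21, among them ARG1 with GLUD1, which was negative. Below, passing and the adjusted permutation p refer to Pearson's r unless rho is named.

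ASS1, CPS1, ASL, SLC25A15 and GLS2 varied together, and each of the 10 pairs among them passed. ASS1 and GLS2 had the highest r of all, 0.84, with a Spearman's rho of 0.80. The permutation p of 1e-05 was the smallest that the resamples can give, adjusted to 0.00015. Without the 2 lambs farthest from the median of ASS1, r was 0.81, and within groups it was 0.69 in biosolids males, 0.88 in control males, 0.91 in biosolids females and 0.86 in control females. CPS1 and ASS1 had an r of 0.82 and a rho of 0.76 (adjusted permutation p 0.00015), and 0.79 without the 2 farthest lambs. Within groups their r was 0.90 in biosolids males, 0.74 in control males, 0.82 in biosolids females and 0.84 in control females. ASS1 and ASL had an r of 0.76 and a rho of 0.70 with the same adjusted permutation p of 0.00015, and 0.67 without the 2 farthest lambs. Their r was 0.30 within biosolids males and 0.81 to 0.87 within the other groups.

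GLUL had an r below 0 with CPS1, ASS1, ASL and ARG1, but not with OTC. With OTC its r was 0.33 (adjusted permutation p 0.118), at 0.66 in biosolids males and -0.45 in control males. Without the 2 lambs farthest from the median of OTC this was 0.07. GLUL correlated positively with 3 of the 9 others. GLUD1 was the one that passed, with an r of 0.62, a rho of 0.61 and an adjusted permutation p of 0.00135. This r was 0.46 without the 2 lambs farthest from the median of GLUL, and 0.71 in biosolids males, 0.59 in control males, 0.45 in biosolids females and 0.56 in control females. With ASS1, GLUL had an r of -0.35 and a rho of -0.28 with an adjusted permutation p of 0.101. It was negative within all groups, from -0.54 in biosolids males to -0.29 in biosolids females, and was -0.43 with an adjusted permutation p of 0.0425 without lambs 8778 and 8263. Over all 30 lambs ARG1 passed by Pearson's r with ASS1 alone, at an r of 0.52 and an adjusted permutation p of 0.00903. The rho of this pair was 0.37, with an adjusted permutation p of 0.0848. Its r was 0.29 without the 2 lambs farthest from the median of ASS1. Without lambs 8778 and 8263 it was 0.62, and ARG1 then also passed with CPS1, at an r of 0.53 and an adjusted permutation p of 0.00932, and with ASL, at 0.55 and 0.00846. With GLUD1, ARG1 had an r of -0.41 (adjusted permutation p 0.0579) and a rho of -0.43 (adjusted permutation p 0.0419). OTC, the enzyme next to CPS1 in the pathway, had an r of 0.37 with it (adjusted permutation p 0.0867) and a rho of 0.43 (adjusted permutation p 0.0417). That r was 0.93 in biosolids females but 0.03 in biosolids males.

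**Figure D4:**
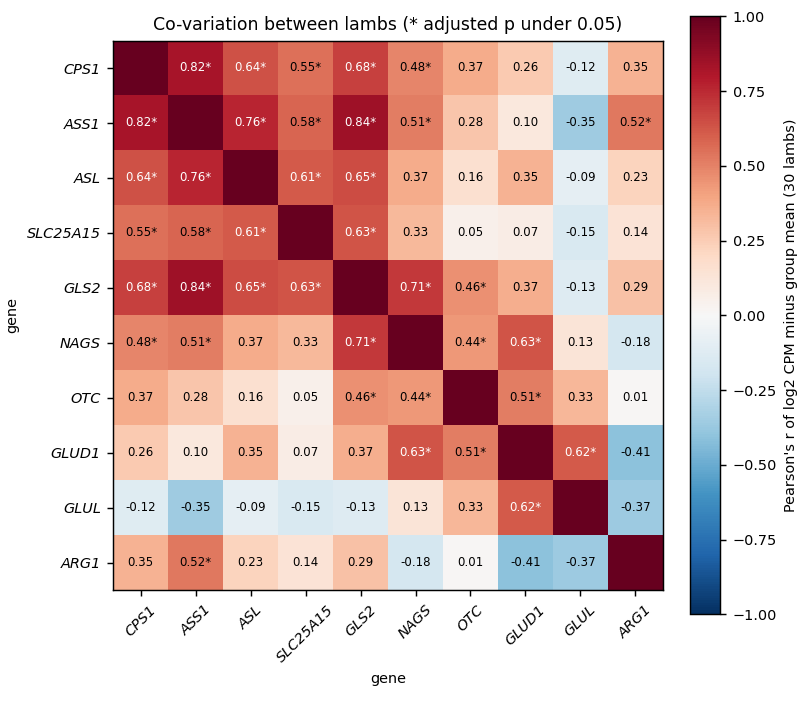
Each cell holds Pearson's r of log2 CPM minus the group mean over 30 lambs for a pair of genes, from blue (negative) to red (positive), with an asterisk where the adjusted permutation p is under 0.05. CPS1, ASS1, ASL, SLC25A15 and GLS2 form a block of positive values from 0.55 to 0.84, while GLUL runs from -0.37 to 0.33 except for 0.62 with GLUD1.

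Glutaminase and glutamine synthetase, which run in opposite directions, also varied in their ratio. Per kilobase, GLS2 over GLUL lay between 0.252 in biosolids male 8770 and 1.84 in control male 8382, with a median of 0.606. The group medians were 0.533 in biosolids males, 0.571 in control males, 0.596 in biosolids females and 0.857 in control females, each within the range of the others. In all 4 groups the lamb with the highest ratio, 8690, 8382, 8775 and 8245, was also the lamb with the most ASS1.

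The genes were set beside 16 periportal and 17 pericentral hepatocyte markers, lists drawn from knowledge of the liver lobule mostly in mice. As a description over the 30 lambs, the median r of ASS1 was 0.52 with periportal and 0.10 with pericentral markers, that of ASL 0.47 and 0.17, that of GLS2 0.45 and 0.23, that of CPS1 0.42 and 0.21, and that of SLC25A15 0.40 and 0.13. For GLUL it was the reverse, -0.11 and 0.41, and for GLUD1 0.20 and 0.50. NAGS did not separate the lists, at 0.38 and 0.40, nor did OTC, at 0.13 and 0.16. ARG1 was at 0.09 with periportal and -0.34 with pericentral markers. Over all genes tested each of these medians lay between -0.04 and 0.00. Pairs of the 1306 genes with at least 100 CPM had a median r of 0.21, near the pericentral medians of CPS1 and GLS2. Single markers with high values were SLC7A2, an arginine transporter, with ASS1 (0.86), and SLC13A3, a dicarboxylate transporter, with GLUD1 (0.84). NKD1, a Wnt target with a median of only 1.42 CPM, was at 0.67 with GLUL. With ARG1, SDS was at 0.74 and LGR5, a receptor for R-spondins, at -0.78.

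**Figure D5:**
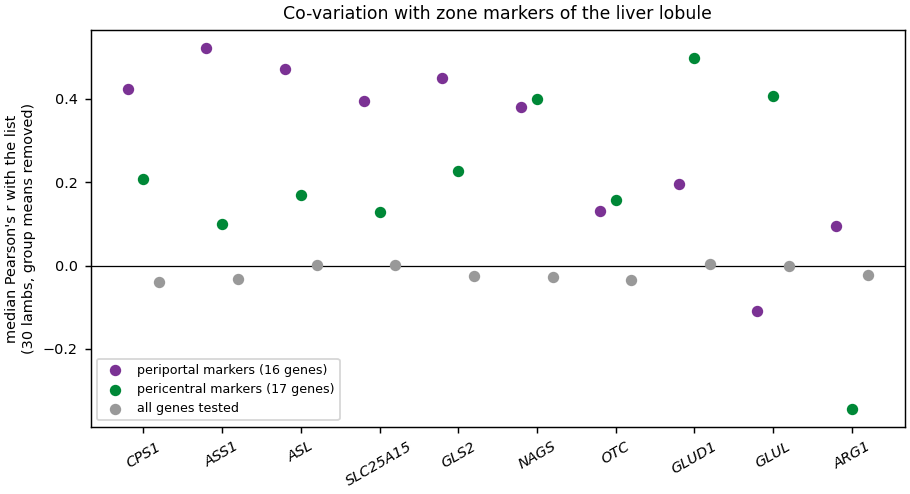
The vertical axis is the median of Pearson's r over 30 lambs between each gene and 16 periportal markers, 17 pericentral markers or all genes tested, with group means removed. CPS1, ASS1, ASL, SLC25A15 and GLS2 lie higher with the periportal list, and GLUD1 and GLUL with the pericentral list.

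The genes most like CPS1 in pattern, by Pearson's r over the 30 lambs among 12029 named genes of at least 1 CPM, were CYB5A and SPTBN1 (both 0.89), MOGAT1 (0.88), PRPF8 (0.87) and ALDH7A1 (0.86). ASS1 came at place 45 and GLS2 at place 551 of that order, and GLUL at place 7554. Most like GLUL were ABHD4 (0.72), CTDSPL and WIF1 (both 0.69), CPNE2 (0.68) and NKD1 (0.67). WIF1 and NKD1 were low, with medians of 0.945 and 1.42 CPM. GLUD1 came at place 12 of the order for GLUL and ASS1 at place 11625.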

How the data were processed

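The deposited table holds raw gene counts of whole liver, with exon coordinates and an exon length per gene, and 1 column per lamb. The submitters' processing notes name featureCounts 1.5.0-p3, STAR, Trimmomatic, FastQC and MultiQC, without settings. Strand use in counting is not given. Per the labels' protocols, RNA came from 30 mg of frozen liver and libraries from a TruSeq RNA kit. In the file, 7 genes broken over 25 lines were joined. Of the unbroken genes 28799 matched RefSeq ARS-UI_Ramb_v3.0 by symbol, all with the same start and end, so positions are in that assembly.

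The labels gave exposure and sex. Counts were fitted in R 4.3.3 with edgeR 4.0.16: filterByExpr over the 4 groups kept 17840 genes, libraries were scaled by TMM, and 1 robust quasi-likelihood model had a mean per group and 26 residual degrees of freedom. Calls were made at 0.05 after Benjamini-Hochberg adjustment over all genes. Intervals are 95%. Correlations used log2 CPM with a prior count of 2, with permutation in Python 3.11.15. The tests were checked on simulated data. Alternatives were other scaling, DESeq2 1.42.0, voom in limma 3.58.1, 2 surrogate variables from sva 3.50.0, other filters and thresholds, fewer groups in the fit, ribosomal RNA rows left out, and leaving out each lamb.

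Members and lists were chosen with earlier results of these data known. Named were all 10 members and, of each list described, those called or otherwise the smallest p. ARG2, SLC1A2 and the genes of the sex check were named with their values in view. Litters and batches are not labelled. P-values measure the spread between lambs, and siblings among them would make those for exposure too small. Tag numbers of biosolids and control lambs fall into separate ranges, and whatever goes with the tags cannot be told apart from exposure. Listed genes with no row in the table, among them SLC25A2 and CA5B, were not analysed here. 1 further gene is not reported here.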

Additional observations from a re-analysis of the deposited data

Results flagged for a closer look

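In 7 of 40 combinations of gene and group, the highest lamb lay far from the nearest other lamb for the range of its group. Chance alone flags about 1 in 20 groups where values are normally distributed. CPM was not checked for that, so the 7 flags cannot be set against this rate. ASS1 was flagged in 3 groups: biosolids male 8690 had 2389 CPM where the next lamb had 1504, biosolids female 8775 had 3188 where the next had 1991, and control female 8245 had 3203 CPM where the next had 1808. Biosolids female 8775 was also far from the others for ASL, at 881 CPM with the next lamb at 609.6. Control female 8245 was far from the others for ARG1 as well, at 293 CPM with the next at 172. GLUD1 was flagged in biosolids male 8770, at 2263 CPM with the next lamb at 1204. OTC was flagged in control female 8378, at 175 CPM with the next lamb at 128. The 7 flags are not independent, since ASS1, ASL and ARG1 share lambs.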

How the results depend on the processing

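No member was called under any alternative in any of the 6 comparisons, and the smallest adjusted p of a member anywhere was 0.142. The counts of all genes called moved by more than 1.5 times in places, and none of these genes was a member. DESeq2 called 4 genes for exposure in males, 4 over both sexes, 1 for the interaction and 53 for sex in controls, against 0, 0, 0 and 15 by edgeR. For sex in controls the count was 64 with voom weights, 3 with at least 1 CPM in 15 libraries, and 10 to 23 with 1 lamb left out, the highest without control female 8245. For sex in biosolids lambs it was 7 with that filter and 10 with only the groups compared in the fit, against 17. Depth limits what can be said of biosolids male 8778, whose counts outside ribosomal RNA were 2.34 M.

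Of 2320 refitted fold changes of members 2230 kept their sign and 90 turned, and the largest value that turned was 0.267 on the log2 scale. The cause was not tested, and none of these was past the threshold. With 2 surrogate variables the log2 fold changes in exposed males were 0.074 for CPS1, -0.13 for ARG1 and 0.024 for GLUD1, and over both sexes 0.0255 for ASL. For the interaction they were 0.078 for NAGS, 0.027 for GLS2 and 0.17 for GLUD1. For sex in controls they were -0.025 for OTC, -0.025 for ASL, -0.065 for NAGS and -0.14 for GLS2, and for sex in biosolids lambs -0.23 for CPS1 and -0.11 for GLS2. With voom weights GLUL was at -0.038 for exposure in females, NAGS at 0.020 for the interaction, ARG1 at 0.018 for sex in controls and ASS1 at 0.053 for sex in biosolids lambs. Without lambs 8778 and 8263, exposure gave -0.072 for ASL and -0.020 for GLUL in females and -0.13 for ARG1 in males, the interaction 0.0004 for SLC25A15 and 0.11 for GLUD1, and sex in biosolids lambs 0.0033 for ASL. OTC in exposed females was at 0.0041 with no filter, 0.0007 with only the groups compared and 0.0015 without ribosomal RNA rows. SLC25A15 for sex in biosolids lambs was at -0.0055 with at least 1 CPM in 15 libraries and -0.0047 without ribosomal RNA rows.

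With 1 lamb left out at a time, the exposure values in females that turned ranged from -0.094 to 0.079 for OTC, -0.084 to 0.42 for ASS1, -0.095 to 0.16 for ASL, -0.0325 to 0.15 for GLUL, -0.17 to 0.11 for GLS2 and -0.205 to 0.0002 for GLUD1. In males they ranged from -0.22 to 0.058 for CPS1, -0.13 to 0.18 for ARG1 and -0.098 to 0.21 for GLUL, and over both sexes from -0.23 to 0.022 for ASS1 and -0.031 to 0.13 for GLUL. The interaction ranged from -0.32 to 0.088 for ARG1, -0.23 to 0.11 for SLC25A15, -0.13 to 0.18 for GLUL, -0.32 to 0.0086 for GLS2 and -0.36 to 0.073 for GLUD1. Sex in controls ranged from -0.11 to 0.21 for SLC25A15. Sex in biosolids lambs ranged from -0.12 to 0.14 for CPS1, -0.33 to 0.073 for ASS1, -0.12 to 0.072 for ASL, -0.12 to 0.078 for SLC25A15 and -0.048 to 0.17 for GLS2.

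The number of members above 0 ranged over all alternatives from 2 to 4 of 10 for exposure in males, 3 to 7 in females, 3 to 5 over both sexes and 1 to 5 for the interaction. It ranged from 5 to 10 for sex in controls and 4 to 9 for sex in biosolids lambs. These counts, and the list counts without biosolids male 8778 and control female 8263, were chosen after seeing the data. Without both of those lambs 22 of 45 correlations passed by Pearson's r, against 19, and r turned to -0.13 for OTC with ARG1 and -0.052 for SLC25A15 with GLUD1. Scaled by totals without ribosomal RNA rows and without TMM factors, 39 of 40 group means moved by less than their SD, and GLUL in biosolids females came to 350 CPM. The SD between lambs is wide beside the differences between groups, so this count cannot show that those differences held. The ratio of the new mean to the old ran from 0.999 to 1.19. The move differed by group. Mean CPS1 went from 3345 to 3347 CPM in control males, 3152 to 3494 in biosolids males and 2561 to 2910 in control females. So scaled, CPS1 was higher in biosolids than in control males. Mean OTC, ASL and SLC25A15 were then lower in control males (141, 600 and 93.4 CPM) than in control females (146, 626 and 101 CPM). No paired analysis was possible because the groups share no replicate numbers.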

Other observations

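SLC1A2, a glutamate transporter known from mice as a neighbour of glutamine synthetase around the central vein, was present at a high level in some lambs and nearly missing in others, and it was singled out after its values were seen. It was below 1 CPM in 12 lambs, with 0.65 CPM as the highest of these, and between 56.2 and 266 CPM in the other 18, with no lamb in between. The low lambs were 4 of 7 biosolids males, 2 of 7 control males, 3 of 8 biosolids females and 3 of 8 control females, so both levels occurred in each group. In the low lambs the gene had 0 to 27 counts, against 1776 to 8910 counts in the others. Among the 17840 genes tested, 45 had a lamb at 50 CPM or more and a lamb under 1 CPM. The r of 0.55 between SLC1A2 and GLUL over the 30 lambs rests on values of this kind.

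RHBG, an ammonia transporter of pericentral hepatocytes in mice, was at 16.1, 28.1 and 51.4 CPM (lowest, median and highest lamb) in biosolids males, 23.8, 32.5 and 68.0 CPM in control males, 10.7, 15.7 and 59.0 CPM in biosolids females and 13.3, 20.9 and 50.8 CPM in control females. The ranges overlapped. The related RHCG was at most 0.104 CPM and RHAG at most 0.0293 CPM in any lamb.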
